A study of Mus musculus with 2 samples.

Results

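The 7 genes described here are the thymus-specific serine protease gene Prss16, the cathepsin genes Ctsl, Ctss and Ctsb, the endocytic receptor gene Ly75, and Tbata and Cd83. They were taken by symbol from the gene list of the count matrices, in which all 7 were found among 32285 genes. The matrices hold single-cell RNA counts of thymic stroma from mice of the genotype E2F_M11, which lack 2 sites for E2F proteins in the proximal promoter of Foxn1 after CRISPR-Cas9 deletion. Both libraries carry that deletion and were made with 10x Genomics 3' chemistry from stroma labelled CD45-, and the submitters' wild-type data were not analysed here, so no value below measures the effect of the deletion. The labels number the libraries 1 and 2 but do not say that they came from separate animals, and p-values then cover only the spread between these samples.

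Developing T cells are selected in the thymus on peptides that epithelial cells present. In the cortex, cathepsin L (Ctsl) and thymus-specific serine protease (Prss16) are known for producing the peptides that MHC class II molecules carry during positive selection of CD4 T cells, whereas cathepsin S (Ctss) does the work of degrading the invariant chain in dendritic cells and medullary epithelium. Cathepsin B (Ctsb) is a broadly expressed lysosomal protease. Ly75 encodes DEC-205, a mannose receptor family protein long used as a surface marker of cortical epithelium. Cd83 protein counters the ubiquitin ligase MARCH8 in cortical epithelium, which keeps class II molecules at the surface. Tbata is a thymus, brain and testis gene described in thymic epithelium.

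Cells were put into classes by marker genes that exclude all 7 members. A raised marker is one with at least 1 UMI, at least 100 CPM (UMIs scaled to the cell's total) in the cell and at least the library's mean CPM. Cortical cells had at least 3 of 8 raised cortical markers (Psmb11, Ccl25, Cxcl12, Dll4, Pax1, Foxn1, Slc46a2, Enpep) and at least 2 of 8 epithelial markers. Libraries 1 and 2 gave 82 and 116 cortical cells, against 294 and 240 Ccl21a-high cells (a medullary chemokine class), 216 and 186 Aire-expressing cells and 146 and 306 mimetic cells, which resemble peripheral cell types such as tuft, keratinocyte and microfold cells. Other stroma comprised 1465 and 1977 fibroblasts, 81 and 70 endothelial, 95 and 33 mural and 60 and 15 mesothelial cells. Another 152 and 2302 cells were thymocyte-like, although the stroma was depleted of CD45+ cells.

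The libraries differed in depth. Library 1 held 41075328 UMIs and library 2 held 42583831, but after filtering they had 3588 and 8186 cells with medians of 8727 and 1874 UMIs. Within the cortical class the median depth was 13182.5 and 2190.0 UMIs per cell. The libraries shared 30 barcodes, 13 of which passed the filters in both. Raw UMIs were summed per class and library, and classes were compared with edgeR's quasi-likelihood test, Benjamini-Hochberg adjusted over 14162 genes. All 7 members passed the low-count filter.

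On the GRCm38 assembly with GENCODE M21 annotation, the 7 protein-coding genes lie on 5 chromosomes. Prss16 is on chromosome 13 from 22002173 to 22009742, Ctsl on chromosome 13 from 64359337 to 64370890 and Cd83 on chromosome 13 from 43784775 to 43803132. Ctss is on chromosome 3 from 95526786 to 95556403, Ctsb on chromosome 14 from 63122462 to 63145923, Ly75 on chromosome 2 from 60292103 to 60383303 and Tbata on chromosome 10 from 61171954 to 61188841. Ctsl, Ctsb and Ly75 each overlap an annotated gene of the opposite strand that is also in the count matrices, namely Gm47123, Fdft1 and Gm13571, and the sources used here do not say whether reads were counted by strand.

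Promoter sequence was at hand in RefSeq (GRCm38.p6) for Ctsl, Ctss, Ly75 and Tbata. The bases upstream of the annotated gene are shown for Ctss, which was high in Aire-expressing cells, and for Ly75 and Tbata, which were high in cortical cells. The 250 bases given for Ctsl lie within its GENCODE gene and are not shown. Both strands were searched for the FOXN1 core ACGC, an E2F motif TTTNNCGC and an interferon regulatory factor (IRF) motif, 2 copies of GAAA with 2 bases between them. The last was chosen after the sequences were seen. Capitals mark the 1 IRF match, in Ctss (chr3:95526536-95526785, plus strand), and there is none in the shown bases of Ly75 (chr2:60383304-60383523, minus strand) or Tbata (chr10:61171714-61171953, plus strand).
Ctss: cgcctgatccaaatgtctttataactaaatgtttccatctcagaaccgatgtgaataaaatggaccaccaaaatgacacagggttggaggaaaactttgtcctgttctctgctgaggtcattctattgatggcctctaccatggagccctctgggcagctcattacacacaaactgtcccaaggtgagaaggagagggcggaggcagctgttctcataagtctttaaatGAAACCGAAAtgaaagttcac
Ly75: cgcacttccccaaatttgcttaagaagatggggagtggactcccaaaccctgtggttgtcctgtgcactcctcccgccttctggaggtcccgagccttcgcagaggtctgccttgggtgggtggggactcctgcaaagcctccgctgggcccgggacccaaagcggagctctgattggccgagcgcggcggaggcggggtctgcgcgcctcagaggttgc
Tbata: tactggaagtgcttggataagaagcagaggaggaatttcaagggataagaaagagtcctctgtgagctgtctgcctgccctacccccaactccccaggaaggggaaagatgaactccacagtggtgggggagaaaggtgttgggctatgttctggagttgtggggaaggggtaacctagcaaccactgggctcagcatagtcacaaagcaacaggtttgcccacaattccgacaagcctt
The IRF match of Ctss spans bases -21 to -12 from the RefSeq start, and 2.98% of 32851 mouse promoter windows of 250 bases hold such a match. The ACGC core occurred 2 times in the Ctsl window and 1 time in the Ly75 window, in the 30 bases trimmed there because they lie inside the annotated gene, and 49.8% of all windows hold it. No E2F match was found in the 4 windows, against 4.28% of all windows. A match is a description of letters in a window and not a measured site.

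**Figure D1:**
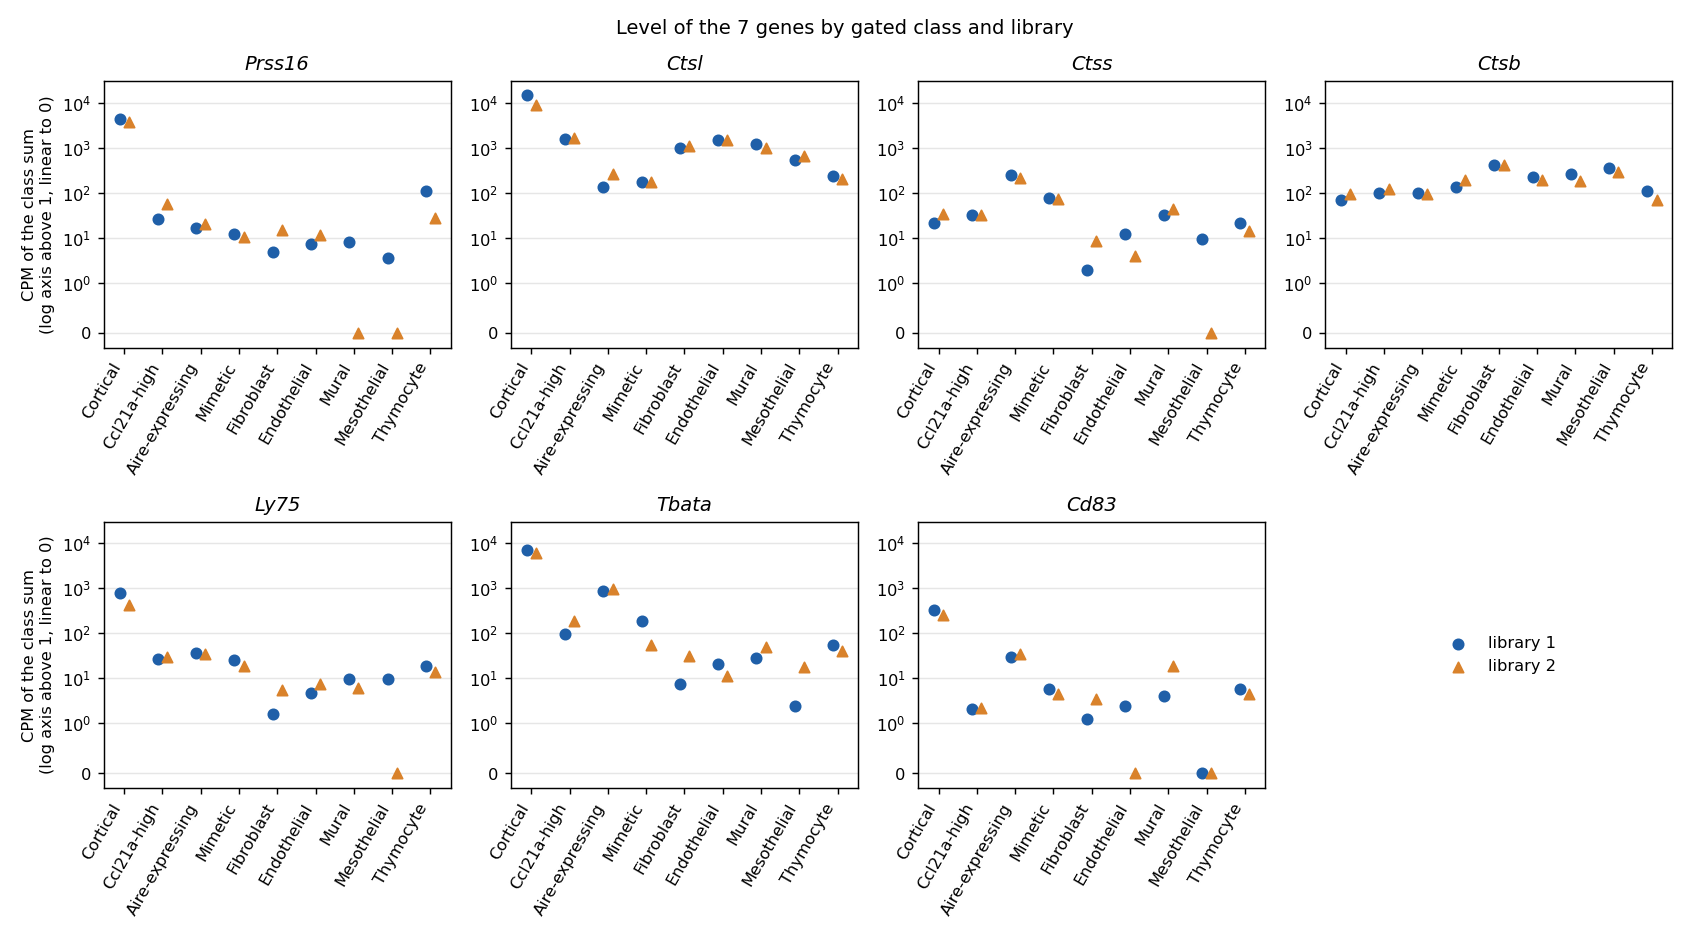
CPM of each gene in the summed counts of 9 classes, for library 1 (circles) and library 2 (triangles), on an axis that is logarithmic above 1 and linear down to 0. Prss16, Ctsl, Ly75, Tbata and Cd83 have their 2 highest points in cortical cells, Ctss in Aire-expressing cells and Ctsb in fibroblasts.

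Prss16 was measured at 4261 CPM in library 1 and 3601 CPM in library 2 of the cortical class. The same gene had 26.1 and 56.7 CPM in Ccl21a-high cells, 16.1 and 20.2 CPM in Aire-expressing cells and 11.8 and 10.4 CPM in mimetic cells. The cortical values stood far above those of every other class, and the highest of the rest was 110.8 CPM, in the thymocyte-like cells of library 1. Prss16 was 92.6-fold higher in cortical than in Ccl21a-high cells (log2 fold 6.53 ± 0.64 SE, edgeR adjusted p = 5.84e-05), 201-fold higher than in Aire-expressing cells (adjusted p = 7.06e-06) and 364-fold higher than in mimetic cells (adjusted p = 5.37e-06). Against mimetic cells and against other stroma it ranked 6 among the 14162 genes by log2 fold. Barcodes that failed the cell filters held Prss16 at 45.4 and 64.6 CPM. Of the classes named here, only the cortical cells exceeded these values in both libraries. In library 1 the thymocyte-like cells and the 9 ciliated mimetic cells, at 60.3 CPM, were above them too. The part of free RNA in the low levels outside the cortex was not tested.

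Ctsl reached 14446 and 8949 CPM in cortical cells, against 1531 and 1648 CPM in Ccl21a-high cells, 132.7 and 264.4 CPM in Aire-expressing cells and 170.4 and 175.1 CPM in mimetic cells. It was 6.91-fold higher in cortical than in Ccl21a-high cells (log2 fold 2.79 ± 0.34 SE, edgeR adjusted p = 0.000273), 53.6-fold higher than in Aire-expressing cells (adjusted p = 8.79e-07) and 70.1-fold higher than in mimetic cells (adjusted p = 5.55e-07). Unlike Prss16, Ctsl was also abundant outside the epithelium, with 993 and 1055 CPM in fibroblasts, 1504 and 1463 CPM in endothelial cells and 1178 and 952 CPM in mural cells. Below the cortical class, Ccl21a-high and endothelial cells came next, their libraries not overlapping but close together. The mural and fibroblast values overlapped, and the mimetic values lay within the range of the Aire-expressing ones.

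Ly75 was at 782 and 427 CPM in cortical cells, against 26.8 and 29.1 CPM in Ccl21a-high, 35.9 and 35.4 CPM in Aire-expressing and 25.5 and 18.5 CPM in mimetic cells. The 3 other epithelial classes were thus close to each other, and fibroblast, endothelial, mural and mesothelial sums all had under 10 CPM of Ly75. The cortical excess was 20.5-fold over Ccl21a-high cells (log2 fold 4.36 ± 0.44 SE, edgeR adjusted p = 7.77e-05), 15.6-fold over Aire-expressing cells (adjusted p = 3.04e-05) and 28.3-fold over mimetic cells (adjusted p = 9.53e-06).

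Tbata was at 7229 and 6137 CPM in cortical cells, 877 and 983 CPM in Aire-expressing cells, 96.6 and 187.0 CPM in Ccl21a-high cells and 188.1 and 55.1 CPM in mimetic cells. Its Aire-expressing level set it apart from Prss16 and Ly75. The Ccl21a-high and mimetic values overlapped. Barcodes that failed the cell filters held Tbata at 116.5 CPM in library 1 and a mean of 104.3 CPM over both libraries. Tbata was 45.7-fold higher in cortical than in Ccl21a-high cells (log2 fold 5.51 ± 0.67 SE, edgeR adjusted p = 0.000273), 55.1-fold higher than in mimetic cells (adjusted p = 5.96e-05) and 6.62-fold higher than in Aire-expressing cells (log2 fold 2.73 ± 0.58 SE, adjusted p = 0.00342). The last call was lost with a looser gate (adjusted p = 0.0723) and with cells of mixed lineage kept (adjusted p = 0.0749), with adjusted p between 9.46e-14 and 0.0749 over 12 alternative settings.

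Cd83 was at 332 and 248 CPM in cortical cells, against 29.0 and 35.4 CPM in Aire-expressing cells, 5.89 and 4.36 CPM in mimetic cells and 2.03 and 2.18 CPM in Ccl21a-high cells. The Ccl21a-high value rests on 6 and 3 UMIs, so the fitted 128-fold difference from that class (SE 0.52 on the log2 scale, edgeR adjusted p = 7.84e-06) is imprecise. Over Aire-expressing cells the fold was 8.45 (log2 fold 3.08 ± 0.38 SE, adjusted p = 9.69e-05). Mesothelial sums held no Cd83 UMI in either library and endothelial sums held 1 and 0, so no fold over other stroma is given, though that comparison passed the test. Myeloid cells, which use Cd83 too, numbered 8 and 6 and had 100.8 and 85.7 CPM. Their sums held only 79363 and 23335 UMIs of all genes, so the library 2 value rests on few Cd83 UMIs. Of the 8 myeloid markers, 6 and 3 had any UMI in the cortical sums, where the list added up to 62.2 and 61.6 CPM, mostly Laptm5 at 51.9 and 57.8 CPM, with Itgax and Adgre1 at 0 in both libraries.

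Ctss was low in cortical cells, at 20.7 and 33.6 CPM, and in Ccl21a-high cells, at 31.2 and 31.3 CPM. Barcodes that failed the cell filters held Ctss at 27.6 CPM in library 1 and a mean of 22.4 CPM over both libraries, near these values. The part of free RNA in them was not tested. Aire-expressing cells had 242.3 and 210.9 CPM and mimetic cells 75.8 and 71.4 CPM. The cortical values did not overlap those of Aire-expressing or mimetic cells, and they enclosed those of Ccl21a-high cells. The cortical level was 9.64-fold lower than the Aire-expressing one (log2 fold -3.27 ± 0.46 SE, edgeR adjusted p = 0.000198) and 2.77-fold lower than the mimetic one (adjusted p = 0.0342). The mimetic comparison passed in 7 of 12 alternative settings. The summed myeloid markers were at 62.2 and 61.6 CPM in cortical cells, against 256.0 and 232.3 CPM in mimetic cells. Laptm5 made up most of both, at 51.9 and 57.8 CPM in cortical and 232.0 and 226.3 CPM in mimetic cells. Thymocyte-like cells held Laptm5 too, at 288.5 and 225.3 CPM. The part of myeloid RNA in the Ctss difference between cortical and mimetic cells was not tested. Between cortical and Ccl21a-high cells the test was not passed (log2 fold -0.38 ± 0.48 SE, adjusted p = 0.730). Myeloid cells, which also use Ctss, had 453.6 and 342.8 CPM.

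Ctsb had its lowest mean in the cortical class, with 66.7 and 93.3 CPM, against 96.9 and 120.0 CPM in Ccl21a-high, 96.8 and 94.9 CPM in Aire-expressing and 135.1 and 191.4 CPM in mimetic cells. Fibroblasts had 407 and 411 CPM. Barcodes that failed the cell filters held Ctsb at 89.2 CPM in library 1 and a mean of 110.5 CPM over both libraries. The part of free RNA in the epithelial levels was not tested. The cortical values overlapped those of thymocyte-like cells, at 110.8 and 69.1 CPM, and of the other classes in the fit none. Among the mimetic subclasses they overlapped those of tuft cells, at 89.1 and 128.9 CPM, of ciliated cells, at 90.5 and 101.1 CPM, and of the 5 neuroendocrine cells of each library, at 91.3 and 243.5 CPM. Ctsb was 3.83-fold lower in cortical cells than in other stroma (log2 fold -1.94 ± 0.27 SE, edgeR adjusted p = 0.000128) and 2.02-fold lower than in mimetic cells (adjusted p = 0.0271, passed in 9 of 12 alternative settings). Against Ccl21a-high cells (log2 fold -0.56 ± 0.30 SE, adjusted p = 0.329) and Aire-expressing cells (-0.42 ± 0.30 SE, adjusted p = 0.332) it did not pass.

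**Figure D2:**
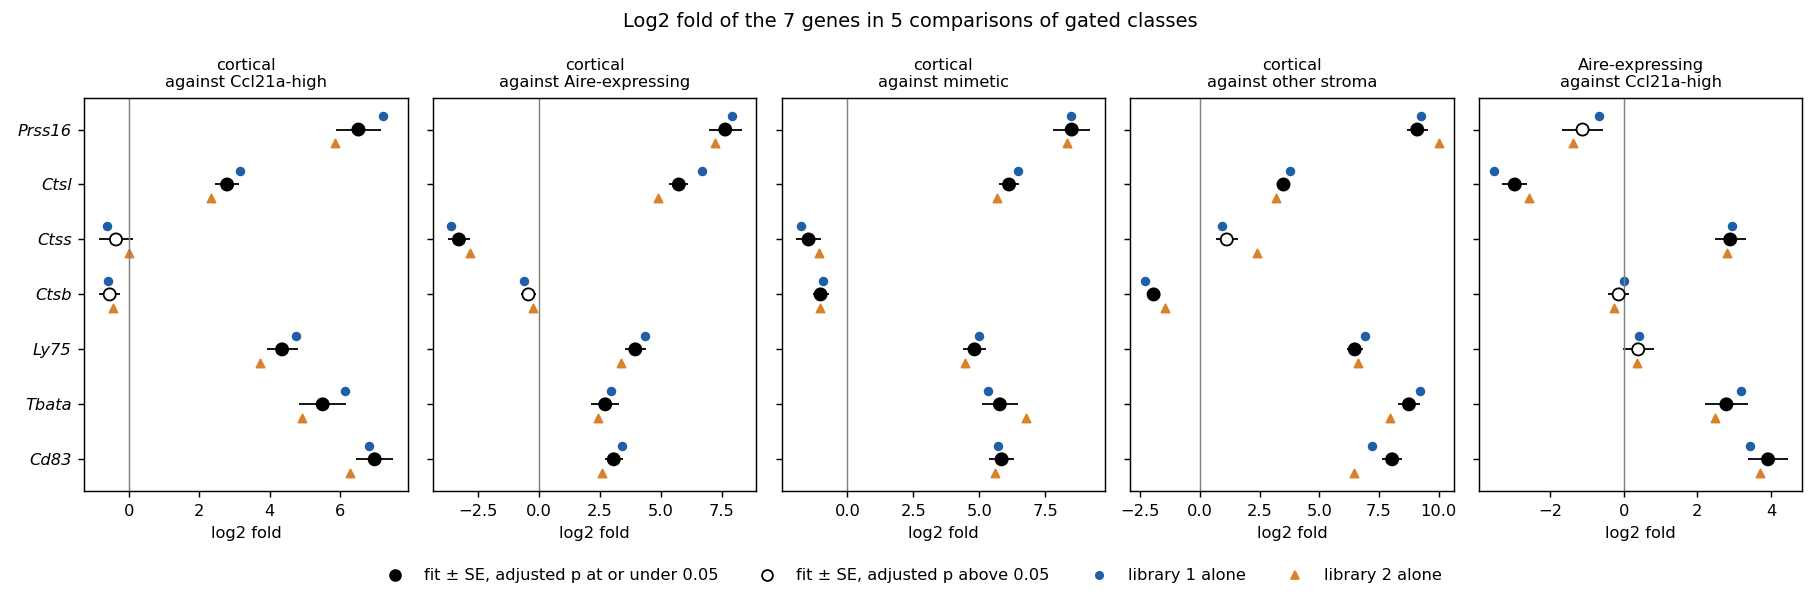
Log2 fold of each gene in 5 comparisons, from the edgeR fit with its SE (large points, filled where the adjusted p is at or under 0.05) and within library 1 (small circles) and library 2 (small triangles) alone. Prss16, Ctsl, Ly75, Tbata and Cd83 lie right of 0 in the 4 cortical comparisons in both libraries, and Ctsb lies left of 0 in all 4.

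By comparison, 5 members were higher and 0 lower in cortical than in Ccl21a-high cells, where 6.98% of all tested genes were called, 3.77% higher and 3.21% lower. The members' median log2 fold was 4.36 and that of all genes -0.06. Against Aire-expressing cells 5 members were higher and 1 lower, with 27.2% of genes called (12% higher, 15.3% lower) and medians of 3.08 and -0.07. Against mimetic cells 5 were higher and 2 lower, with 21.8% of genes called (9.23% higher, 12.6% lower) and medians of 5.78 and -0.09. Against other stroma 5 were higher and 1 lower, with 22.9% of genes called (13.3% higher, 9.57% lower) and medians of 6.48 and 0.03. These comparisons share the cortical samples and are not independent.

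Between the medullary classes, the cathepsins moved in opposite directions. In Aire-expressing against Ccl21a-high cells Ctss was 7.42-fold higher (log2 fold 2.89 ± 0.42 SE, edgeR adjusted p = 0.000191) and Ctsl 7.76-fold lower (log2 fold -2.96 ± 0.34 SE, adjusted p = 4.30e-05). Tbata was 6.90-fold higher (adjusted p = 0.00274) and Cd83, on the 9 UMIs of the Ccl21a-high class, had a log2 fold of 3.92 ± 0.53 SE (adjusted p = 0.000163). Prss16 (log2 fold -1.12 ± 0.56 SE, adjusted p = 0.146), Ly75 (0.39 ± 0.42 SE, adjusted p = 0.512) and Ctsb (-0.14 ± 0.29 SE, adjusted p = 0.762) did not pass. In this comparison 31% of all tested genes were called, 17.8% higher and 13.3% lower, and the members' median log2 fold was 0.39.

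Myeloid markers moved with Ctss. Their summed level was 590.6 and 633.1 CPM in Aire-expressing cells, against 26.1 and 57.5 CPM in Ccl21a-high cells, with 8 of 8 markers detected in Aire-expressing cells in each library. Laptm5 made up most of it, at 484.3 and 491.5 CPM in Aire-expressing cells, against 19.3 and 50.9 CPM in Ccl21a-high cells. Fcer1g followed at 48.0 and 51.1 CPM, against 2.37 and 2.91 CPM, and C1qa at 13.2 and 63.4 CPM, against 2.03 and 0.727 CPM. Csf1r was at 13.2 and 6.88 CPM, against 1.02 and 1.45 CPM, and Itgax at 1.76 and 0.492 CPM, against 0 and 0.727 CPM. The part of myeloid RNA in the Ctss difference was not tested. With every cell holding a thymocyte or myeloid marker UMI left out, only 5 and 7 Aire-expressing cells remained. Ctss then had a log2 fold of 1.95 ± 0.92 SE over Ccl21a-high cells (edgeR adjusted p = 0.221), and of -2.66 ± 1.06 SE in cortical against Aire-expressing cells (adjusted p = 0.135), so both calls were lost. Over all 12 alternatives the adjusted p ran from 5.55e-16 to 0.221 in the first and from 1.71e-16 to 0.135 in the second of these comparisons.

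**Figure D3:**
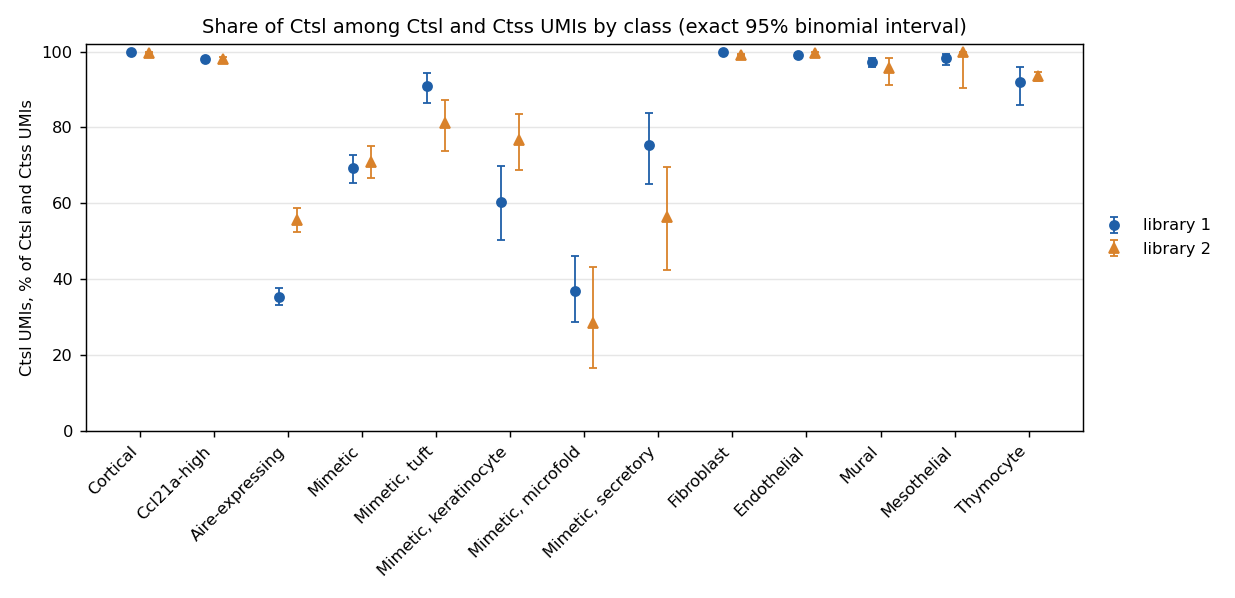
Ctsl UMIs as a percentage of Ctsl plus Ctss UMIs, by class and library, with exact 95% binomial intervals. Cortical, Ccl21a-high and the 4 other stromal classes lie above 95%, and the Aire-expressing and microfold classes have the lowest shares.

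The balance of cathepsin L to cathepsin S transcripts was expressed as the share of Ctsl among Ctsl and Ctss UMIs. It was 99.9% and 99.6% in cortical cells (19497 and 4796 Ctsl UMIs against 28 and 18 Ctss UMIs), 98.0% and 98.1% in Ccl21a-high cells, and 69.2% and 71.0% in mimetic cells. In Aire-expressing cells it was 35.4% in library 1 (exact binomial interval 33.1% to 37.7%) and 55.6% in library 2 (52.4% to 58.8%), so these libraries differed by more than the counting error. Intervals here and below cover counting error only. Within the mimetic cells the share was 37.0% and 28.6% in microfold cells, whose gut counterparts sample antigens. It was 91.0% and 81.2% in tuft cells, which resemble the chemosensory type. Microfold cells held a median of 3 and 2 raised markers of the Aire-expressing class, against 0 and 0 in tuft cells, and the part of this in their share was not tested. Fibroblasts had 99.8% and 99.2%, close to the cortical share at a lower Ctsl level.

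The mimetic subclasses differed in other members too, on small numbers of cells. Microfold cells (34 and 40 cells) had Ctss at 155.6 and 189.0 CPM, against 19.6 and 42.98 CPM in tuft cells (65 and 101 cells). Secretory cells had Ctsb at 315.4 and 275.7 CPM and tuft cells at 89.1 and 128.9 CPM. Tbata varied between libraries, with 438.7 and 32.6 CPM in keratinocyte-like cells (23 and 114 cells) and 591.9 and 206.6 CPM in ciliated cells (9 and 10 cells). Neuroendocrine-like cells, 5 in each library, held no Tbata or Prss16 UMI. These subclasses were not compared by a test.

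**Figure D4:**
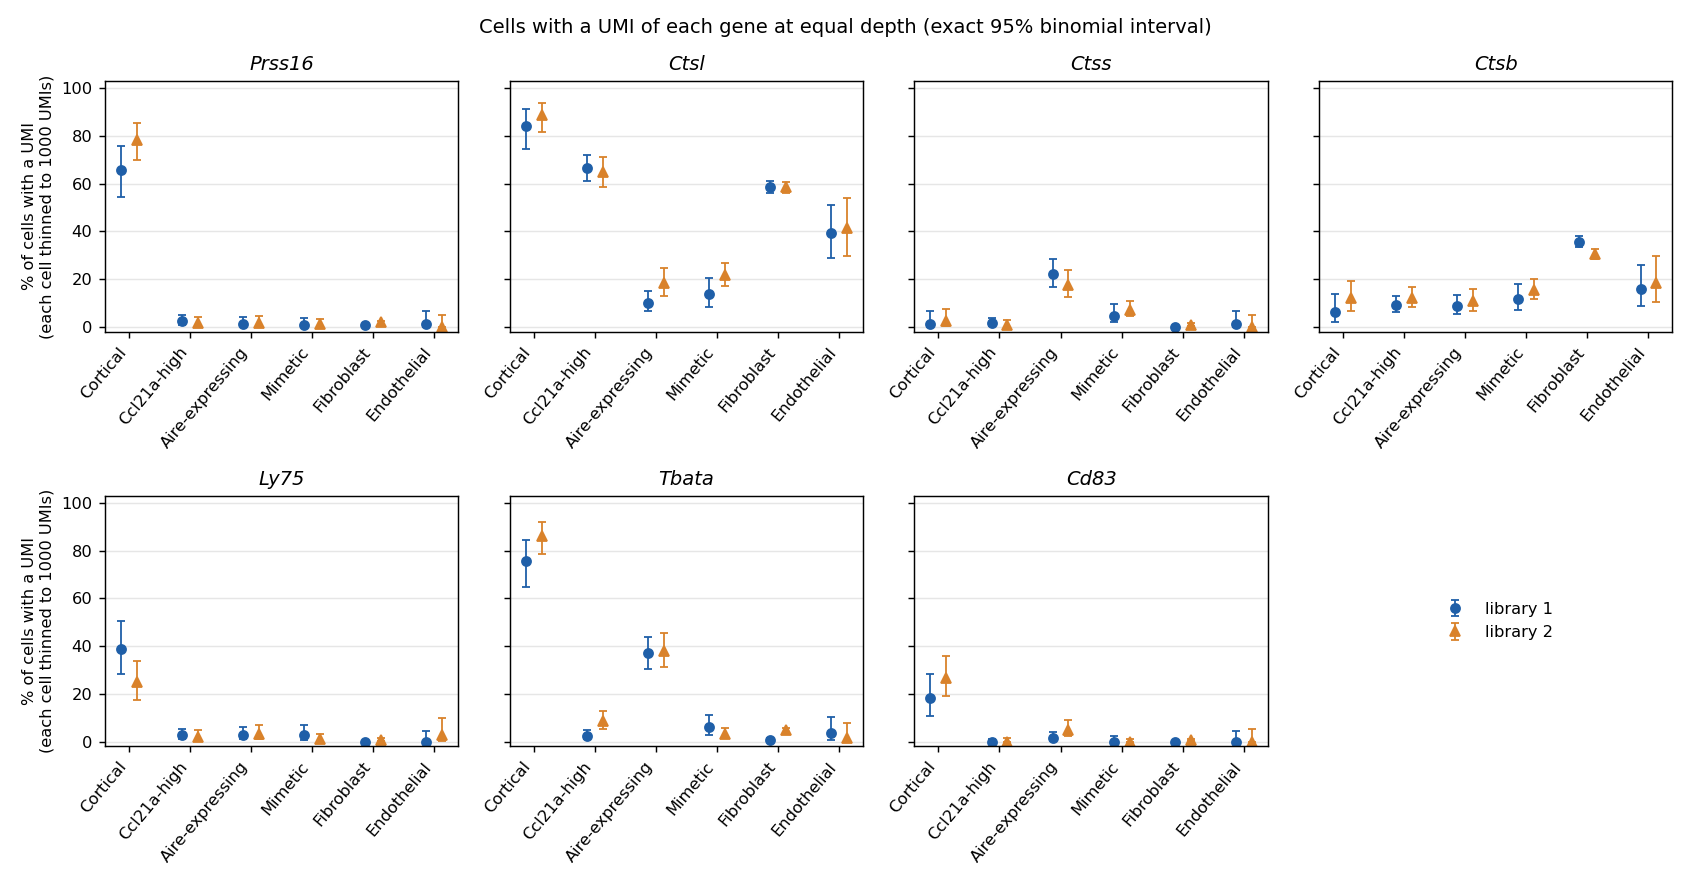
Percentage of cells with at least 1 UMI of each gene after thinning each cell to 1000 UMIs, by class and library, with exact 95% binomial intervals. Prss16, Ctsl and Tbata are found in most cortical cells, Ctss in about 20% of Aire-expressing cells, and Ctsb in more fibroblasts than epithelial cells.

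At an equal depth of 1000 UMIs per cell, Prss16 was found in 65.9% and 78.4% of cortical cells, Tbata in 75.6% and 86.2% and Ctsl in 84.1% and 88.8%. Without thinning, Prss16 was found in 85.4% and 89.7% of cortical cells. As a background, 0.819% and 1.92% of fibroblasts, which are not known to use Prss16, had a thinned Prss16 UMI, at median depths of 9178 and 2049 UMIs before thinning. The Aire-expressing share was 1.39% in library 1, above that of the fibroblasts, and 1.61% in library 2, below it. The Ccl21a-high share was likewise above it in library 1, at 2.38%, and below it in library 2, at 1.67%. Ly75 was found in 39.0% and 25.0% of cortical cells (70.7% and 51.7% unthinned), against 2.72% and 2.08% of Ccl21a-high and 0.0683% and 0.860% of fibroblast cells. Cd83 was found in 18.3% and 26.7% of cortical cells (57.3% and 46.6% unthinned), against 1.39% and 4.84% of Aire-expressing cells. It was in 0 of 294 and 0 of 240 Ccl21a-high cells. With 3 cells taken as the limit for a count of 0, this allows shares of up to 1.02% and 1.25%. These limits are not the exact binomial ones.

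Outside the cortex, Tbata was found in 37.0% and 38.2% of Aire-expressing cells, against 2.38% and 8.75% of Ccl21a-high cells and 0.819% and 4.75% of fibroblasts. Ctss was found in 22.2% and 17.7% of Aire-expressing cells, 87.5% and 60.8% unthinned. In cortical cells Ctss was in 1.22% and 2.59%, near the fibroblast share of 0.205% and 0.961%, with wide intervals reaching 6.61% and 7.37%. Ctsb was found in 6.10% and 12.1% of cortical cells and in 35.8% and 30.7% of fibroblasts.

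Cortical cells were not uniform. In library 1 the per-cell Prss16 level ran from 0 to 16071 CPM with a median of 2063 CPM, and in library 2 from 0 to 13631 CPM with a median of 4380 CPM. Thinned cortical cells held a median of 3 of the 7 members in each library, against 1 in Ccl21a-high and Aire-expressing cells and 0 in mimetic cells. No cortical cell held all 7. Across 64 cortical cells of library 1 with at least 5000 UMIs, thinned to that number, Prss16 was correlated with Ctsl (Spearman's rho 0.79), Ly75 (0.77), Tbata (0.68) and Cd83 (0.61). The rho of Prss16 was -0.25 with Ctss and -0.09 with Ctsb. These points share 1 library and 1 depth, and the values are a description. The 64 cells were not separated by their number of raised cortical markers, with which the levels changed as given below. The part of that in the rho values was not tested.

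Levels differed with the number of raised cortical markers of a cell. In the 14 and 35 cortical cells with exactly 3 raised markers, Prss16 was at 139.4 and 1689 CPM, against 4922 and 4090 CPM in the 68 and 81 cells with 4 or more. Ctsl was at 2895 and 3726 CPM in the cells with 3 markers, against 16298 and 10282 CPM in those with more, and Cd83 at 26.8 and 82.6 CPM against 380.9 and 290.4 CPM. Ctsb went the other way, with 134.0 and 137.7 CPM in cells with 3 markers (25 and 15 UMIs). Those with more had 55.9 and 82.0 CPM (65 and 35 UMIs). The part of depth per cell in these differences was not tested. Just outside the gate, 52 and 86 unclassed epithelial cells with 2 raised cortical markers had Prss16 at 50.9 and 255.4 CPM. The 16 and 52 cells that met the cortical and the thymocyte gates together, and were left out, had Prss16 at 4217 and 2192 CPM and Ctsl at 13026 and 4504 CPM.

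Related proteases and endosomal genes were read from 6 lists. Of all tested genes, 3.77%, 12%, 9.23% and 13.3% were called higher in cortical than in Ccl21a-high, Aire-expressing, mimetic and other stromal cells. The shares called lower were 3.21%, 15.3%, 12.6% and 9.57%. In Aire-expressing against Ccl21a-high cells they were 17.8% higher and 13.3% lower. The counts of called list genes below stand beside these shares and were not tested against them. In a list of 16 genes of other lysosomal proteases and of the thiol reductase Ifi30, of which 15 passed the low-count filter, cortical cells had 0 called in either direction against Ccl21a-high cells, 2 higher and 5 lower against Aire-expressing cells, and 0 higher and 7 lower against mimetic cells. The median log2 folds were -0.28, -1.39 and -1.32, against medians over all genes between -0.09 and -0.06. The aminopeptidase cathepsin H gene Ctsh was at 44.5 and 31.7 CPM in cortical cells, against 469.3 and 376.0 CPM in Aire-expressing cells (log2 fold -3.55 ± 0.56 SE, edgeR adjusted p = 0.000458). Cathepsin Z (Ctsz) was at 67.4 and 46.7 CPM in cortical cells, against 426.0 and 317.5 CPM in Aire-expressing cells (log2 fold -2.81 ± 0.31 SE, adjusted p = 3.46e-05). Ifi30 was lower in cortical than in Aire-expressing cells (-1.89 ± 0.32 SE) and higher than in other stroma (2.26 ± 0.30 SE). The dipeptidyl peptidase cathepsin C (Ctsc) and carboxypeptidase cathepsin A (Ctsa) were lower in cortical than in mimetic cells, with log2 folds of -3.33 ± 0.49 and -2.05 ± 0.35 SE. Against other stroma 1 gene of the list was higher, Ifi30, and 7 were lower. In Aire-expressing against Ccl21a-high cells 3 of its genes were higher (Ctsz, Ifi30 and Ctsh, with log2 folds of 2.75, 2.11 and 3.27) and 1 lower (Ctsd, cathepsin D, at -1.18). The Ctsd call passed in 8 of 12 alternative settings.

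Among 8 cathepsin inhibitors, 6 of which passed the filter, Cstb stood out in the cortex. Cstb encodes cystatin B, a cytosolic inhibitor of cathepsins L, B, H and S. It was at 4795 and 3331 CPM in cortical cells, against 476.5 and 443.0 CPM in Ccl21a-high, 776.5 and 832.1 CPM in Aire-expressing and 521.4 and 498.5 CPM in mimetic cells. The log2 folds were 3.02 ± 0.34, 2.16 ± 0.33 and 3.01 ± 0.34 SE, and 4.50 ± 0.22 SE against other stroma, and Cstb was called in all 4 edgeR comparisons. The secreted cystatin gene Cst6 and the intracellular serpin gene Serpinb6a were lower in cortical than in mimetic cells, at -3.83 ± 0.55 and -2.16 ± 0.38 SE. In all, 1, 1, 1 and 2 inhibitors were higher and 0, 2, 4 and 0 lower in cortical cells against Ccl21a-high, Aire-expressing, mimetic and other stromal cells, with medians of 0.58, -0.95, -2.99 and 0.92. Aire-expressing cells had 2 higher and 0 lower against Ccl21a-high cells, with a median of 1.97.

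Of 6 proteasome catalytic subunits, Psmb9 (immunoproteasome subunit beta1i) was higher in cortical cells in all 4 comparisons, with log2 folds of 1.59, 1.61, 1.77 and 2.44 against Ccl21a-high, Aire-expressing, mimetic and other stromal cells. Psmb10 (beta2i) was called against Ccl21a-high (1.88 ± 0.27 SE), mimetic (2.18 ± 0.27 SE) and other stromal cells (2.10 ± 0.19 SE). Psmb8 (beta5i) was lower in cortical than in Aire-expressing cells, at 177.1 and 272.4 CPM against 502.1 and 313.1 CPM (log2 fold -1.001 ± 0.330 SE, edgeR adjusted p = 0.0357), with -0.40 in library 2 alone, and passed in 8 of 12 alternative settings. Counts were 2, 1, 2 and 4 higher and 0, 1, 0 and 0 lower in the 4 cortical comparisons, with medians of 0.41, 0.21, 0.33 and 0.88. Aire-expressing cells had 1 higher against Ccl21a-high cells, Psmb10 at 1.34 ± 0.26 SE, with a median of 0.27.

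A list of MARCH ligases and class II genes, with chains of the class II molecules and of the loading factors DM and DO, the invariant chain and the regulator Ciita, held 12 genes that all passed the filter. Against other stroma 10 were higher and 0 lower in cortical cells, with a median of 3.51, including Cd74 (the invariant chain) at 8496 and 8836 CPM. Against Ccl21a-high cells 0 were called, with a median of 0.31, against Aire-expressing cells 1 was higher and 2 lower (-0.92), and against mimetic cells 3 were higher and 0 lower (1.04). March8, the ligase named above, was at 57.1 and 50.4 CPM in cortical cells, against 15.8 and 16.7 CPM in Aire-expressing cells (log2 fold 1.60 ± 0.37 SE, edgeR adjusted p = 0.00579, passed in 9 of 12 alternative settings). H2-Ob and H2-Oa, chains of the DO peptide-loading regulator, were lower in cortical than in Aire-expressing cells, at -2.67 ± 0.52 and -1.71 ± 0.61 SE, which passed in 10 of 11 and 8 of 12 alternative settings. H2-DMa, a chain of the loading catalyst DM, was higher in cortical than in mimetic cells (2.82 ± 0.52 SE). Aire-expressing cells had 4 of them higher and 1 lower against Ccl21a-high cells (median 1.34), the last being March8 at -2.08 ± 0.35 SE.

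Of 9 lysosome membrane and regulation genes, 8 passed the filter. Lamp2, a major lysosomal membrane protein gene, was at 1204 and 916.2 CPM in cortical cells, against 285.0 and 312.8 CPM in Ccl21a-high, 200.01 and 196.1 CPM in Aire-expressing and 157.4 and 196.9 CPM in mimetic cells. It was called higher in all 4 cortical comparisons, with log2 folds of 1.73, 2.28, 2.62 and 1.94 (SE 0.25, 0.25, 0.26 and 0.18). The lysosomal transmembrane gene Laptm4a was higher against Aire-expressing (1.85 ± 0.43 SE) and mimetic cells (1.43 ± 0.43 SE), and the cholesterol carrier gene Npc2 against other stroma (1.03 ± 0.18 SE). Laptm4a against mimetic cells passed in 9 of 12 alternative settings. Counts were 1, 2, 2 and 2 higher and 0 lower in each of the 4 comparisons, with medians of -0.01, -0.04, 0.30 and -0.37. In Aire-expressing against Ccl21a-high cells 1 was higher (Npc2) and 1 lower (Laptm4a), with a median of -0.32. Of the 3 other mannose receptor family genes, the relatives of Ly75, Mrc1 was lower in cortical than in Aire-expressing cells. It was at 0 and 3.73 CPM against 41.8 and 36.4 CPM. The cortical values lie under the 2.22 and 5.60 CPM that 3 UMIs make in these sums. The part of myeloid RNA in the Aire-expressing Mrc1 level was not tested. In the other 3 cortical comparisons 0 of these genes were called. The medians of the 3 genes were -0.26, -1.58, -0.26 and -2.08, and 1.32 in Aire-expressing against Ccl21a-high cells, where Mrc1 was the 1 higher gene.

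Across the 18 sums of 9 classes and 2 libraries, the genes whose log2 level was most like each member's were found by Pearson's r. This is a description over sums that share libraries. The candidates were the genes past the low-count filter without the 7 members and the gate markers, so nearest means nearest among those. Plgrkt, a plasminogen receptor gene, was the nearest to Prss16 (r = 0.93) and to Ly75 (r = 0.97), and Tmem131l was among the 3 nearest to both (0.91 and 0.90). Crip3, a gene of the cysteine-rich LIM protein family, was the nearest to Tbata (0.95) and to Cd83 (0.90). Synm, which encodes the intermediate filament protein synemin, was the nearest to Ctsl (0.97), ahead of Lifr (0.92) and Dipk1a (0.91). Ctss was followed by S100a14 (0.96), Bspry (0.95) and Calcb (0.94), and Ctsb by Fuca1 (0.93), Sdf4 (0.92) and P4hb (0.92). The 7 members fell into no single pattern, since r was 0.92 between Tbata and Cd83 and 0.90 between Prss16 and Ly75, but -0.27 between Ctsl and Ctss and -0.76 between Tbata and Ctsb.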

How the data were processed

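Members and gene lists were chosen with earlier results of these data known. Per the submitters' processing notes, the authors used Cell Ranger 7 and Seurat 4 with the mm10 build, while the deposited matrix headers name Cell Ranger 6.0.0. The deposited values are raw UMI counts per gene and barcode. The cell filter kept 11774 barcodes with 500 or more genes, 1000 or more UMIs and a mitochondrial share of 10% or less. The marker gate needed 3 raised markers per class, a threshold set after marker values were seen but not those of the 7 genes. Every epithelial class also needed 2 raised epithelial markers. Aire-expressing cells needed a raised Aire, and Ccl21a-high cells needed Ccl21a at 3 or more times the library's mean CPM. A cell that met several gates of 1 lineage went to the class with the highest share of raised markers. Cells qualifying for 2 or more lineages, 348 and 1404 in libraries 1 and 2, were dropped, and no doublet caller was used. Another 639 and 1520 cells met no gate and 2 and 11 were tied between classes. These were in no class of the reported fit. The 18 class sums were fitted in edgeR 4.0.16 (R 4.3.3, TMM scaling, low-count filter, library as a block, since the classes of a number come from the same library). "Other stroma" is the mean of 4 class coefficients, or of the fibroblast and endothelial ones alone where cells with blood marker UMIs were left out. Folds within a library use TMM CPM with a prior count of 2. SE is the size of the log2 fold over the root of its F. Thinning drew 1000 UMIs per cell. Shares have exact binomial intervals. Alternatives were DESeq2 1.42.0, RLE scaling, no low-count filter, other cell filters and gates, clusters in place of the gate (scanpy 1.11.5), thinned sums and no block. The fit was tested on simulated data. The named list genes were the 4 with the lowest adjusted p at or under 0.05 per list and comparison. Other than Mrc1, those resting on 1 to 3 UMIs or on single libraries are given as counts or left out.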

Additional observations from a re-analysis of the deposited data

How the results depend on the processing

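Prss16, Ctsl, Ly75, Tbata and Cd83 kept their direction and their call in the 4 cortical comparisons under all 12 tested alternatives, other than Tbata against Aire-expressing cells (10 of 12). Some alternatives held few cortical cells in a library. There were 28 and 134 with clusters, and 30 and 23 without cells holding blood marker UMIs. The number of members called was 5 in cortical against Ccl21a-high cells under every alternative. It was 5 to 6 against Aire-expressing, 5 to 7 against mimetic and 6 to 7 against other stromal cells, and 3 to 5 in Aire-expressing against Ccl21a-high cells. Over all genes the alternatives called 177 to 1393, 454 to 4546, 461 to 3505, 687 to 3738 and 433 to 5300, in the same order. The number of genes tested changed with some settings, and the member counts were not tested against these totals. Without the replicate block the member counts were 5, 6, 7, 6 and 4, as with it. Ctss against other stroma, with an adjusted p of 0.104, passed in 5 of 12 alternatives, and its log2 fold was 0.94 in library 1 and 2.40 in library 2. In Aire-expressing against Ccl21a-high cells Prss16, not called as reported (adjusted p = 0.146), was called lower with the looser gate (adjusted p = 0.0276) and when no low-count filter was used (adjusted p = 0.0184), with adjusted p up to 0.903 over the 12 alternatives. The members that changed sign below were not called in the reported fit. Ctss in cortical against Ccl21a-high cells turned to 0.38 with the looser gate, 0.73 with thinned cells and 0.10 with clusters. Ctsb in cortical against Aire-expressing cells turned to 0.013 with the looser gate and 0.53 without cells holding blood marker UMIs. In Aire-expressing against Ccl21a-high cells, Ctsb turned to 0.025 with DESeq2, 0.023 with RLE scaling, 0.16 with thinned cells and 0.083 with clusters, and Prss16 to 0.23 with clusters. There, without blood marker cells, Ly75 was -8.12 (its Aire-expressing sums then come from 5 and 7 cells), and of the list genes Npc2 was -0.74 and Ciita -0.80. The cause of these changes was not tested. The mean share of thinned cortical cells with a UMI, over the 7 members, was 43.6%. It was 62.5% without thinning, 34.2% with the looser gate, 47.2% with the stricter gate, 49.7% without blood marker cells and 40.1% with clusters. The cortical share of Ctsl was 99.7%, and 99.6% with clusters.

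Over all genes, thinned sums called 177, 575, 461, 687 and 715 genes in the 5 comparisons, against 988, 3856, 3092, 3242 and 4396 as reported, in the order of the member counts above. Without blood marker cells 495, 454, 752, 1494 and 433 were called. No mural or mesothelial sum entered that fit, so its other stroma is the fibroblast and endothelial classes only. Clusters called 1764, 1306 and 2214 against Aire-expressing, mimetic and other stromal cells, and the looser gate 537 against Ccl21a-high cells. Scaling by RLE moved the median log2 fold of all genes from -0.07 to -0.21 in cortical against Aire-expressing and from -0.00 to 0.16 in Aire-expressing against Ccl21a-high cells, a shift far below the called members' folds. The 2 libraries and the 15 mesothelial cells of library 2 limit the precision.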
